A study of Triticum aestivum with 13 samples.

Results

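TugelaDn1 and TugelaDn2 are wheat lines that resist the Russian wheat aphid, Diuraphis noxia, in different ways, and their leaf transcripts were compared after 48 h of feeding. The labels class the host response of TugelaDn1 (genotype Dn1) as Antibiosis and that of TugelaDn2 (genotype Dn2) as Tolerance. The comparison used the 3 arrays titled TugelaDn1 and the 3 arrays titled TugelaDn2, of 13 arrays in all. It was made over all 61179 probe sets, the groups of short probes that each read 1 transcript or close relatives. It was made again over the 19688 probe sets with a mean log2 intensity of 8 or more in either line, called bright here. The bright probe sets nearest the limit had a higher mean of 8.0001 (Ta.1984.1.S1_at) and 8.0004 (Ta.7740.1.A1_x_at), and the nearest left out had 7.9999 (Ta.26996.1.A1_at) and 7.9995 (TaAffx.64107.1.S1_at).

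All lines share the background of the hexaploid bread wheat cultivar Tugela. Tugela itself (genotype Dn0) is RWA susceptible, and TugelaDn5 combines antibiosis with antixenosis. Seedlings were grown in a greenhouse, every line received biotype SA1 of the aphid at the stage of the third leaf, 10 aphids per plant without a choice of host, and leaves other than the first were harvested. Each line had 3 biological repeats, and TugelaDn5 repeat 3 was hybridised a second time. Uninfested plants were not analysed here, so differences present before feeding and responses to feeding cannot be told apart. The age of the plants in days, the plants pooled in a repeat and the donor segments that each near-isogenic line carries were not stated. The description label of the TugelaDn2 samples names TugelaDn1, and their title, source name and genotype, which give TugelaDn2, were followed.

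The aphid feeds on phloem sap and injures the leaf while it does so, and susceptible plants roll their leaves and lose chlorophyll. In antibiosis the plant reduces the survival or the reproduction of the insect. In tolerance the plant carries the insect with less injury, and in antixenosis it is a less acceptable host.

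After trimming 2% from both tails each array had a mean intensity of 500.1, an equality that the scaling of the deposited values fixed. The median ran from 82.51 to 97.97, and 19.32% to 21.43% of values on an array lay under the floor of 16, which is 4 on the log2 scale. Spearman correlations over probe sets (which are no replicates) were 0.867 to 0.873 within TugelaDn1, 0.875 to 0.892 within TugelaDn2 and 0.860 to 0.883 between them. The leaf transcript rbcl, the large subunit of Rubisco, reached a mean of 16.83 in TugelaDn1 and 16.74 in TugelaDn2 on probe set Ta.24976.1.S1_x_at. Of 9 probe sets matched by seed markers, 1 was bright, avnlb on Ta.27777.1.S1_at, at 13.04 against 13.10. As a measure of how completely transcripts were copied, the log2 signal at the 3′ end minus that at the 5′ end was taken. For sucrose synthase it was 5.35, 6.47 and 4.45 in the TugelaDn1 repeats and 5.01, 4.43 and 5.27 in the TugelaDn2 repeats. The lines overlapped in it, and also for glucose-6-phosphate dehydrogenase and ubiquitin.

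Few transcripts were called between TugelaDn1 and TugelaDn2 over the whole array, and those differed by large factors. limma, with all 4 lines in 1 fit and Benjamini-Hochberg adjustment, called 45 of 61179 probe sets (0.0736%) at an adjusted p under 0.05, 25 of them higher (0.0409%) and 20 lower (0.0327%) in TugelaDn1. They belonged to 40 transcript clusters, all 45 differed by at least 2-fold and 28 by at least 4-fold, and the median size was 2.18 on the log2 scale. The repeats of the lines did not overlap in any of the 45, against no overlap in 13.0% of all probe sets. The calls were chosen with these same repeats, so this is no separate evidence. In whole leaves, fewer cells of a type and less RNA per cell cannot be told apart. Without 1 repeat at a time the count ran from 24, without Tugela repeat 1, to 73, without TugelaDn1 repeat 3, and it was 26 without Tugela repeat 2 and 27 without TugelaDn5 repeat 1. Of the 45, 2 probe sets, Ta.23352.1.S1_at and Ta.3830.1.S1_a_at, kept their call in all 22 alternatives.

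Among bright probe sets the differences were more numerous and smaller, and more of them were higher in TugelaDn1. The refit called 349 of 19688 (1.77%), of which 240 were higher (1.22%) and 109 lower (0.554%) in TugelaDn1. The median size was 1.01, 182 differed by at least 2-fold and 34 by at least 4-fold, and the smallest called difference was 0.49. Over all bright probe sets 9140 lay higher and 10548 lower in TugelaDn1, with a median difference of -0.03. The repeats did not overlap in any of the 349, against no overlap in 22.6% of all bright probe sets, and the calls were again chosen with these repeats. This count rested on single repeats: it was 63 without TugelaDn1 repeat 1, 158 without TugelaDn1 repeat 3, 86 without TugelaDn2 repeat 1, 64 without TugelaDn2 repeat 2 and 222 without TugelaDn2 repeat 3. The limit of 8 looks at the brighter line, and with 8 or more required of both lines 279 were called. It also rested on how the spread was estimated: with only the 6 arrays of the compared lines 52 were called, and 55 from the p-values of the fit over all probe sets.

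**Figure D1:**
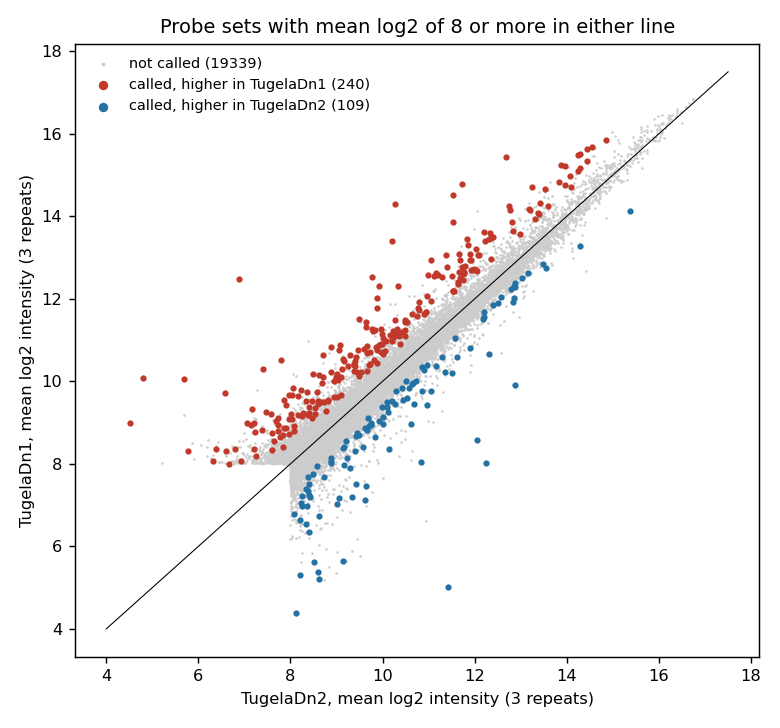
Mean log2 intensity of each bright probe set in TugelaDn2 (horizontal) against TugelaDn1 (vertical), 3 repeats each, with the line of equal level. The 240 called probe sets above the line outnumber the 109 below it, and the point farthest below, at 11.41 and 5.02, is Ta.23352.1.S1_at.

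The largest called difference upward in TugelaDn1 with no repeat at the floor lay in transcript cluster Ta.3830, for which the tables used give no gene. On Ta.3830.1.S1_a_at the TugelaDn1 repeats read 14.34, 14.22 and 14.33, and the TugelaDn2 repeats 10.28, 10.47 and 10.05. The lines were far apart, with a log2 difference of 4.03 ± 0.13 (adjusted p = 6.82e-06), or 16.3-fold. For a difference, the value after ± is the SE of the limma fit, with the spread pooled over all 4 lines (n = 3 each). Tugela, at 14.44 ± 0.05 (SD, n = 3), and TugelaDn5, at 14.12 ± 0.04, stood with TugelaDn1, so that TugelaDn2 was the line that read low. Ta.3830.2.S1_x_at read 12.43, 12.55 and 12.42 in TugelaDn1 and 6.82, 5.65 and 8.18 in TugelaDn2, a difference of 5.58 ± 0.49 (adjusted p = 0.00645). Its SD was 1.27 in TugelaDn2, against 0.07 in TugelaDn1, 0.03 in Tugela and 0.06 in TugelaDn5. The pooled spread was therefore smaller than that of TugelaDn2. Ta.3830.2.S1_at read 8.72, 9.15 and 9.14 against 4.0, 4.0 and 5.52, at least 22.6-fold higher in TugelaDn1 (adjusted p = 0.00638). Ta.3830.3.S1_x_at differed by 1.93 and was called only among bright probe sets (adjusted p = 0.0431), and the dim Ta.3830.3.S1_at, 4.0, 6.99 and 6.86 against 4.39, 6.38 and 4.0, was not called. So 4 of the 5 probe sets of the cluster were called in the same direction.

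TaAffx.107221.1.S1_at, also without a gene, showed the same arrangement of lines. It read 10.52, 10.36 and 9.39 in TugelaDn1 and 6.39, 4.0 and 4.0 in TugelaDn2, at least 39.2-fold higher in TugelaDn1 (adjusted p = 0.0252). Its means in Tugela and TugelaDn5 were 10.51 and 9.73. Its call was lost in 6 of 22 alternatives over all probe sets and in 0 of 25 among bright ones. Ta.7531.1.S1_at was at the floor in all TugelaDn2 repeats and read 6.59, 7.12 and 7.03 in TugelaDn1, at least 7.53-fold higher (adjusted p = 0.00413), with Tugela at 7.58 and TugelaDn5 at 7.74. TaAffx.105763.1.S1_at read 7.96, 7.47 and 7.57 against 4.0, 5.38 and 4.0, at least 9.23-fold (adjusted p = 0.0413), with the call lost in 14 of 22 alternatives. In each of these TugelaDn2 lay below all repeats of the other 3 lines. The sizes of these rises depend on the floor too. With the highest floor tried, the log2 difference came to 3.09 for TaAffx.107221.1.S1_at, 0.05 for Ta.7531.1.S1_at and 0.67 for TaAffx.105763.1.S1_at.

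In a second kind of upward difference TugelaDn1 had the highest mean and Tugela the next. Ta.3249.1.S1_at read 14.83, 13.96 and 14.79 in TugelaDn1 and 11.34, 11.36 and 11.85 in TugelaDn2, a difference of 3.01 ± 0.27 (adjusted p = 0.00645), with Tugela at 13.39 and TugelaDn5 at 12.85. The other probe sets of that cluster, Ta.3249.2.S1_x_at and Ta.3249.3.A1_at, differed by 2.39 and 2.75 and passed only among bright probe sets (adjusted p = 0.00747 for both). Cluster Ta.22984 gave 3.08 ± 0.36 on Ta.22984.1.S1_x_at (15.05, 14.24 and 15.09 against 11.60, 11.35 and 12.20; adjusted p = 0.0297) and 2.77 on Ta.22984.2.S1_x_at. Their calls were lost in 7 and 9 of 22 alternatives over all probe sets and in 0 of 26 among bright ones. On Ta.22984.1.S1_x_at Tugela was at 13.62, and TugelaDn5, at 11.94, lay near the 11.72 of TugelaDn2. The third probe set of that cluster did not share the difference. Ta.22984.3.S1_at read 11.22, 11.20 and 11.27 against 11.24, 11.40 and 11.28, a difference of -0.08 (adjusted p = 0.892), so the cluster was not uniform. Ta.28496.1.A1_at read 9.73, 9.0 and 10.43 against 7.06, 6.80 and 5.87, a difference of 3.14 (adjusted p = 0.0446), with Tugela at 8.89 and TugelaDn5 at 7.86. Its call was lost in 14 of 22 alternatives over all probe sets and in 1 of 25 among bright ones.

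The only gene-paired probe set called over all probe sets was Ta.3795.1.S1_x_at, which the tables pair with LOC543256, which has no name here beyond that number. TugelaDn1 read 13.63, 12.57 and 13.98 and TugelaDn2 10.16, 10.34 and 10.11. The lowest TugelaDn1 repeat still stood above every TugelaDn2 repeat, and the difference was 3.19 ± 0.33, or 9.13-fold (adjusted p = 0.0168). Tugela, at 12.20 ± 0.29, lay between the lines, and TugelaDn5, at 10.35 ± 0.27, lay at the level of TugelaDn2. Names ending in _a_at, _s_at or _x_at mark probe sets that can share probes with related transcripts. They made up 37.0% of the called bright probe sets and 38.1% of all bright ones.

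**Figure D2:**
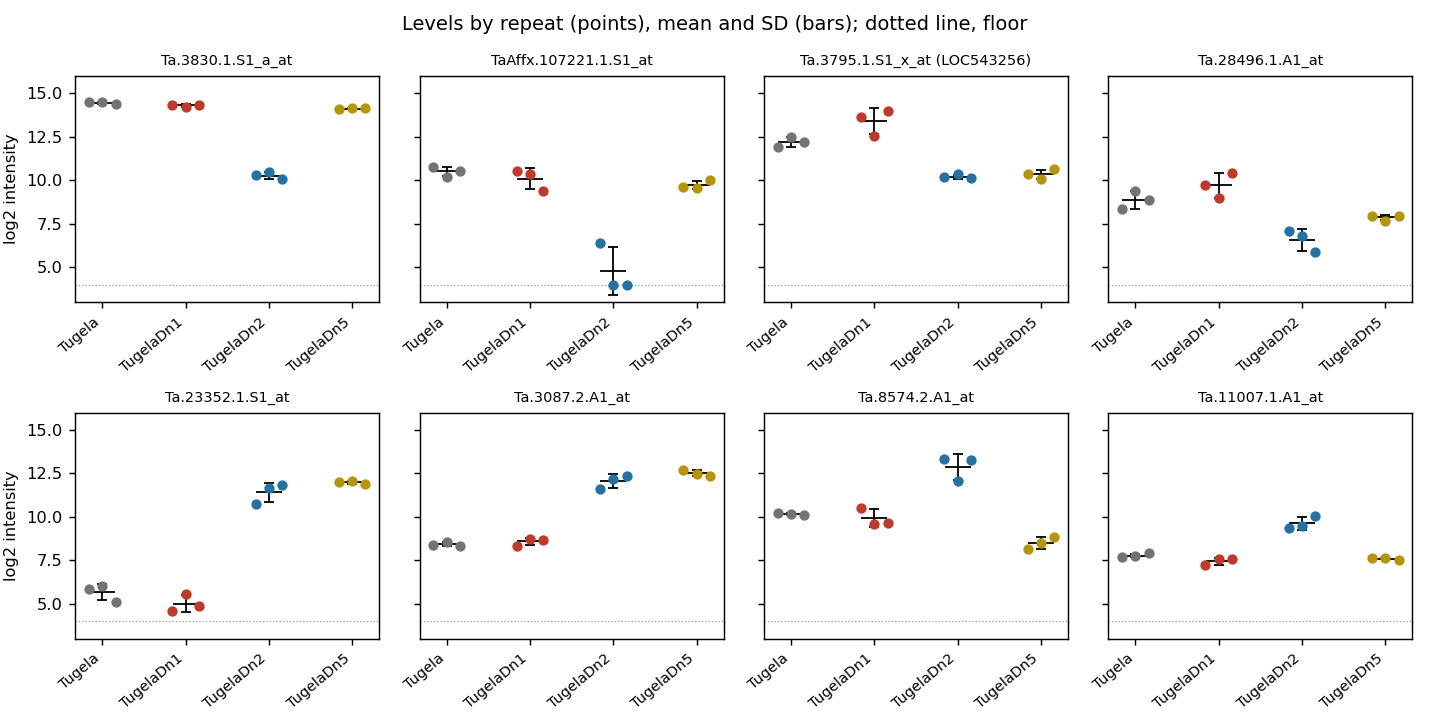
Log2 intensity of 8 probe sets in each repeat (points) of the 4 lines, with the mean and SD of 3 repeats (bars) and the floor at 4 (dotted). In the upper row TugelaDn1 reads above TugelaDn2, as in Ta.3830.1.S1_a_at at 14.30 and 10.27, and in the lower row it reads below, as in Ta.3087.2.A1_at at 8.59 and 12.05.

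Transcripts higher in the tolerant line were led by Ta.23352.1.S1_at, which the tables pair with no gene. It read 4.62, 5.57 and 4.87 in TugelaDn1, near the floor, and 10.76, 11.64 and 11.82 in TugelaDn2. The log2 difference was -6.39 ± 0.35 (adjusted p = 0.000324). With TugelaDn1 so near the floor its size has no firm base, and over the alternatives it ran from -6.71 to -4.41, the last with the highest floor tried, with the call kept. Here the 4 lines fell in pairs, with Tugela at 5.66 ± 0.46 beside TugelaDn1 and TugelaDn5 at 11.98 ± 0.10 beside TugelaDn2. Ta.3087.2.A1_at was arranged in the same way, at 8.35, 8.76 and 8.66 in TugelaDn1 and 11.62, 12.18 and 12.36 in TugelaDn2 (-3.46 ± 0.21, adjusted p = 0.000574), with Tugela at 8.43 and TugelaDn5 at 12.51. Ta.3087.2.A1_x_at, of the same cluster, differed by -1.63 (adjusted p = 0.0103).

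Other falls differed in where the remaining lines stood. Ta.11007.1.A1_at read 7.22, 7.57 and 7.59 in TugelaDn1 and 9.36, 9.49 and 10.05 in TugelaDn2 (-2.18 ± 0.20, adjusted p = 0.00645), and Tugela and TugelaDn5, at 7.78 and 7.60, lay near TugelaDn1, so that TugelaDn2 alone was high. Ta.8574.2.A1_at read 10.51, 9.61 and 9.63 against 13.32, 12.04 and 13.26 (-2.96 ± 0.37, adjusted p = 0.0375), and TugelaDn5 was the lowest line, at 8.50. This call was lost in 11 of 22 alternatives over all probe sets and in 1 of 26 among bright ones. The dim Ta.8574.3.S1_at of that cluster was not called, at -0.52. Ta.13768.1.S1_x_at, named after its values were seen, read 8.46, 8.07 and 7.50 against 12.56, 11.07 and 13.11 and was called only among bright probe sets (-4.24, adjusted p = 0.00927).

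The rest of the 10 largest falls among the 45 calls were dim. Ta.6520.1.A1_at, Ta.10723.1.A1_at, TaAffx.59048.1.S1_at, Ta.5695.1.S1_at, Ta.3116.1.S1_at and TaAffx.129145.2.S1_at had 5.76 to 7.35 in the TugelaDn2 repeats, and each had at least 1 TugelaDn1 repeat at the floor, so the sizes of these differences depend on the floor and are not ranked. With the highest floor tried they came to between -0.12 and 0, and each lost its call in some alternatives, from 4 of 21 for Ta.6520.1.A1_at to 17 of 21 for Ta.3116.1.S1_at. Of Ta.6520, the partner Ta.6520.1.A1_x_at read 5.62, 7.07 and 6.35 against 5.74, 6.72 and 4.0, a difference of 0.86 in the opposite direction that was not called (adjusted p = 0.841). Floor values were common among the calls: the lower line lay at the floor in every repeat in 3 of the 25 higher and 6 of the 20 lower probe sets. No probe set was at the floor throughout one line with a mean of 8 or more in the other, in either direction. At the floor in every repeat of TugelaDn2 and above it in every repeat of TugelaDn1 were 311 probe sets, of which 3 were called, and in the reverse direction 244, of which 6 were called. Over all probe sets 45 of 61179 (0.0736%) were called, and both of these sets were picked by a separation of the same repeats.

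In most called bright transcripts Tugela, the susceptible parent, read closer to TugelaDn1 than to TugelaDn2. This held for 233 of the 349 (66.8%, against 53.2% of all bright probe sets). TugelaDn5 was closer to TugelaDn1 in 117 (33.5%, against 44.9%), although TugelaDn1 and TugelaDn5 are both labelled with antibiosis. On a scale where 0 is the level of TugelaDn2 and 1 that of TugelaDn1, the median position was 0.63 for Tugela and 0.29 for TugelaDn5. These shares are descriptions without a test, and called probe sets were chosen with the TugelaDn1 and TugelaDn2 arrays.

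**Figure D3:**
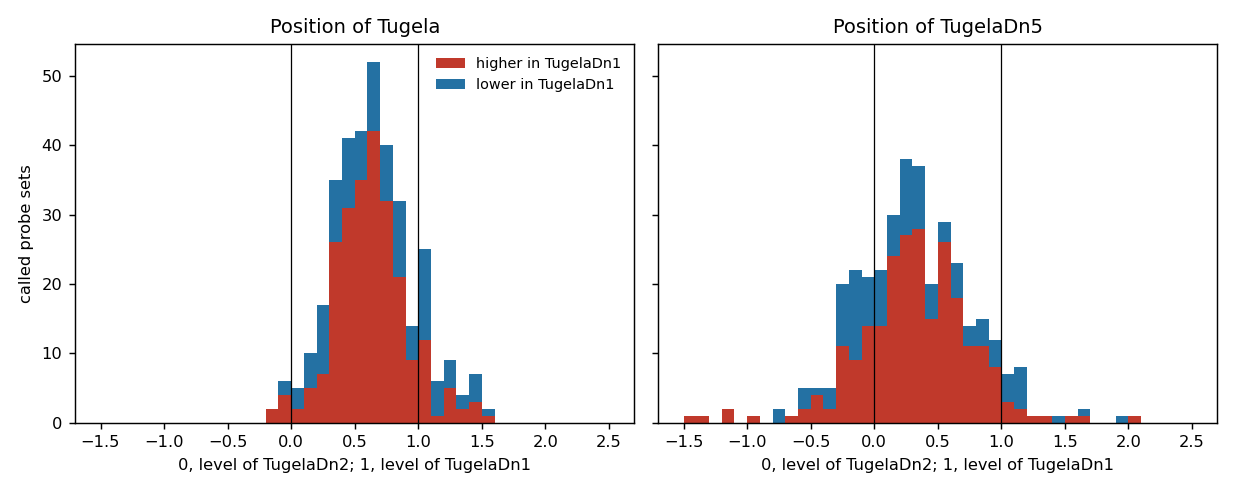
Position of Tugela (left) and TugelaDn5 (right) between TugelaDn2 (0) and TugelaDn1 (1) on the log2 scale for the 349 called bright probe sets, as numbers of probe sets per bin, coloured by direction. Tugela centres at 0.63 and TugelaDn5 at 0.29, and for TugelaDn5 1 value beyond the axis is drawn in the lowest bin.

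Separations in which no repeat overlapped between sets of lines sort the 349 further, and a probe set can meet more than 1 of them. TugelaDn1 lay above all other repeats in 100 (28.7%, against 1.70% of all bright probe sets) and below them in 39 (11.2%, against 1.87%). TugelaDn2 lay below all others in 90 (25.8%, against 1.41%) and above them in 34 (9.74%, against 1.51%). TugelaDn1 with Tugela lay above TugelaDn2 with TugelaDn5 in 94 (26.9%, against 1.65%), and below them in 44 (12.6%, against 1.89%). The antibiotic lines TugelaDn1 and TugelaDn5 together lay above TugelaDn2 and Tugela in 8 (2.29%, against 0.457%) and below them in 6 (1.72%, against 0.579%). Calls require the TugelaDn1 and TugelaDn2 repeats to be apart, so higher shares among calls than in the background follow from the choice.

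**Figure D4:**
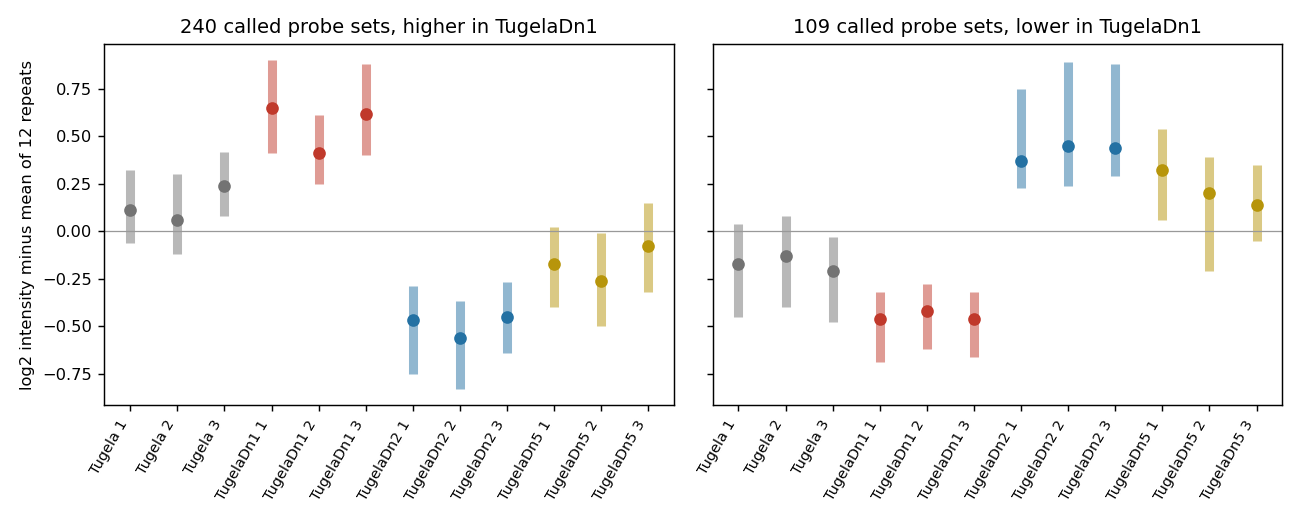
Log2 intensity minus the mean of the 12 repeats, for the 240 called bright probe sets higher (left) and the 109 lower (right) in TugelaDn1, as the median (point) and quartiles (bar) per repeat. TugelaDn1 repeats lie at 0.41 to 0.65 and TugelaDn2 repeats at -0.56 to -0.45 on the left, where Tugela lies at 0.06 to 0.24 and TugelaDn5 at -0.26 to -0.08.

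The upward calls were not carried equally by the TugelaDn1 repeats. Repeat 2 was the lowest TugelaDn1 repeat in 151 of the 240 (62.9%, against 33.5% of all bright probe sets), and its median over the 240, at 0.41, was below the 0.65 and 0.62 of repeats 1 and 3. Repeat 2 also had the highest 3′ minus 5′ difference among the 6 arrays for each transcript measured. It was 6.47 for sucrose synthase, 3.18 for glucose-6-phosphate dehydrogenase (2.04 to 2.89 on the others) and -1.0 for ubiquitin (-1.53 to -1.34 on the others). The part of this difference in the result was not tested. Without this repeat 332 probe sets were called.

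Called probe sets of 1 transcript cluster mostly had 1 direction, with uncalled members left out of this count. Of the 349 called, 74 lay in 32 clusters with more than 1 called probe set, and in 31 of these clusters all called members had the same direction. Ta.5390 was the exception, with Ta.5390.2.S1_at higher by 0.58 (adjusted p = 0.0441) and Ta.5390.1.S1_at lower by 2.48 on the log2 scale (adjusted p = 0.00817) in TugelaDn1. Cluster Ta.7524 was higher in TugelaDn1 on 3 of its 4 probe sets, at 1.90 for Ta.7524.1.A1_at (12.97, 12.82 and 13.04 against 11.15, 11.10 and 10.89) and 1.96 for Ta.7524.2.A1_x_at. Clusters Ta.20639, Ta.5600 and Ta.975, named after their values were seen, had 4 of 6, 3 of 3 and 3 of 3 probe sets called, all higher in TugelaDn1. Such probe sets read 1 transcript or close relatives and are not separate changes.

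Only 18 of the 349 called probe sets were paired with a gene, 18 of the 711 paired bright probe sets (2.53%, against 1.77% of all bright). They name 17 genes, 13 higher and 4 lower in TugelaDn1. Apart from LOC543256 they passed only among bright probe sets, and their calls were weak: the call of tubb2 was lost in 14 of 26 alternatives, that of lgul in 12, of rbcl in 10 and of PEAMT1 in 6, and each of the rest in 1 to 17. The largest were LOC606391 on Ta.12663.1.S1_at, higher by 2.73 (95% CI 1.92 to 3.53, adjusted p = 0.00747), and LOC100037634, higher by 2.01 and 1.70 on its called probe sets, TaAffx.9231.2.S1_x_at and TaAffx.9231.2.S1_s_at. LOC542855, LOC606320, LOC542812, LOC543216, LOC542794, LOC542980 and LOC542868 were higher by 0.63 to 1.5. LOC606341, LOC606340 and LOC100037599 were lower, at -0.53, -0.54 and -1.14. Roles are left out for genes with no name other than such a number.

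Of the called genes with a name, PEAMT1 (LOC543067), a phosphoethanolamine methyltransferase on the route to phosphocholine and glycine betaine, differed most. It read 12.35, 11.23 and 11.75 in TugelaDn1 and 9.59, 9.61 and 10.41 in TugelaDn2, higher by 1.90 (95% CI 1.15 to 2.66, adjusted p = 0.0258). TugelaDn1 stood above all lines here, with Tugela at 9.80 and TugelaDn5 at 10.63. Other genes of methyl transfer did not pass: COMT1, which methylates lignin precursors, differed by 0.19 (-0.41 to 0.78), and SAHH, which recycles the product of methyl transfer, by 0.19 and 0.03 on its probe sets.

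The gene lgul (LOC542984), lactoylglutathione lyase, which detoxifies methylglyoxal with glutathione, was the called member of the detoxification and redox group. Ta.8554.1.S1_at read 9.77, 9.12 and 9.67 in TugelaDn1 and 8.46, 8.19 and 8.33 in TugelaDn2, higher by 1.19 (0.62 to 1.75, adjusted p = 0.0479). Its second probe set, Ta.28068.1.S1_at, differed by 1.00 and did not pass (adjusted p = 0.134). The other members of the group were not called. Among them CAT1, a catalase that breaks down hydrogen peroxide, differed by 0.70 (adjusted p = 0.0778), and Trx-M, a chloroplast thioredoxin, by 0.80 (adjusted p = 0.0692). Of 8 bright probe sets in the group 6 lay higher and 2 lower in TugelaDn1, with a median of 0.59 against -0.03 over all bright probe sets. The group was filled after the called values were seen, so this describes its members and is no test of the theme. The lower ones were both of GSTZ1, a glutathione transferase, at -0.27 and -0.37, while another bright probe set of it differed by 0.48.

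Genes of photosynthesis lay higher in TugelaDn1 by differences that, with 1 exception, did not pass. In carbon fixation all 11 bright probe sets lay higher, with a median of 0.17, and 1 of them was called. Over the whole array 9140 bright probe sets lay higher in TugelaDn1 and 240 of those were called, 1.22% of all 19688 bright ones. Of the 11 in carbon fixation, 9 read the same gene, rbcl (LOC100049018), and share its transcript. The called one, TaAffx.128896.17.S1_s_at, read 10.87, 11.16 and 11.25 against 10.44, 10.21 and 10.05, higher by 0.86 (0.51 to 1.21, adjusted p = 0.0289), while the other 8 differed by 0.03 to 0.59. PRK, the phosphoribulokinase that regenerates the carbon dioxide acceptor, differed by 0.82 (adjusted p = 0.085) and FBP, a fructose bisphosphatase, by 0.44 (adjusted p = 0.127). In the light reactions 4 of 4 bright probe sets lay higher with 0 called, led by PsbP of the oxygen-evolving complex at 1.19 and 0.65 (adjusted p = 0.056 and 0.0865), while PsbO of that complex differed by 0.10. After quantile normalization 10 of 11 and 3 of 4 lay higher, so these directions were not all kept. The photosynthesis groups were also filled after the called values were seen.

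One beta-tubulin was called. The gene tubb2 (LOC543258), a subunit of microtubules, read 12.14, 12.31 and 11.59 in TugelaDn1 and 12.84, 12.89 and 12.83 in TugelaDn2, lower by 0.84 on the log2 scale (-1.23 to -0.45, adjusted p = 0.0431). Tugela, at 12.69, and TugelaDn5, at 13.02, were near TugelaDn2. No other beta-tubulin was called. The bright probe sets of the others lay on the other side of 0, with tubb1 at 0.42, tubb3 at 0.13, Tubb4 at 0.33 and Tubb5 at 0.29 to 0.39, while the dim Tubb5 probe set Ta.214.2.A1_at lay at -0.32, and the alpha-tubulin TUBA differed by -0.30. The difference between tubb2 and its relatives was not tested. Histone genes had bright probe sets from -0.12 to 0.58, with 0 called.

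**Figure D5:**
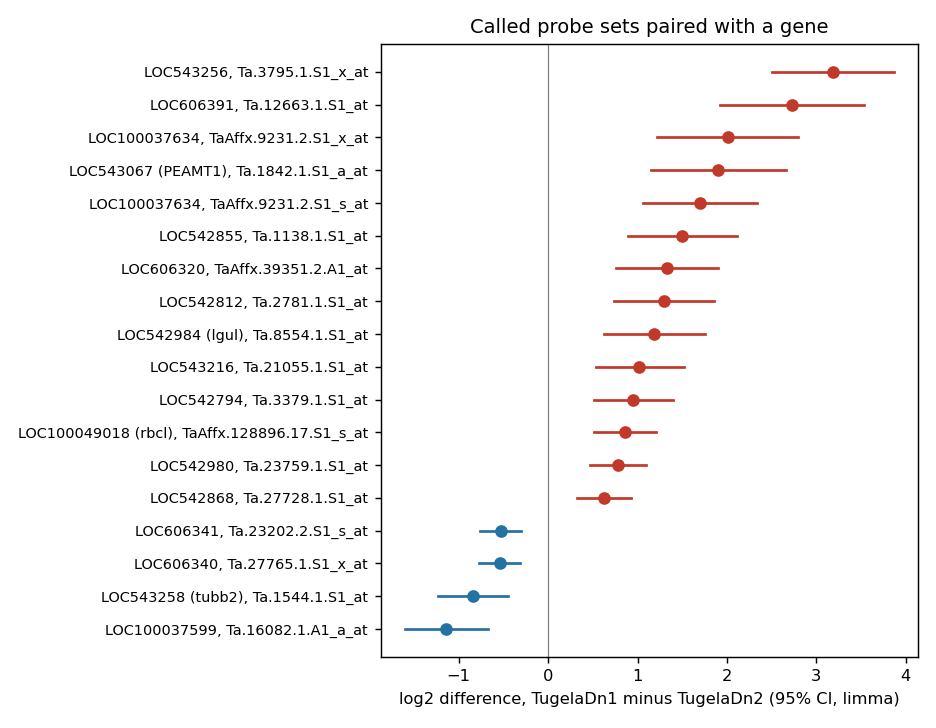
Log2 difference, TugelaDn1 minus TugelaDn2, of the 18 called bright probe sets paired with a gene, with the 95% confidence interval from limma (3 repeats per line). The 14 intervals on the right lie above 0, led by LOC543256 at 3.19, and the 4 on the left below 0, down to -1.14 for LOC100037599.

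Few genes often measured in defence were bright, and none of these was called: 0 of 5 bright probe sets of PR5, LTP3 and xip, where 1.77% of all bright probe sets were called, so that 0 says little about them. PR5, a thaumatin-like pathogenesis-related protein, had means of 13.70 and 13.53, and its interval was wide (0.17, 95% CI -2.61 to 2.94). The fit pooled the spread of all lines. The PR5 repeats had an SD of 0.55 in TugelaDn1 and 0.65 in TugelaDn2, against 2.63 in Tugela and 2.27 in TugelaDn5. With this pooled spread the interval did not bound the difference closely. LTP3, a lipid transfer protein, differed by 0.33 (-0.03 to 0.69) on its brightest probe set, and xip, an inhibitor of microbial xylanases, by -0.20 and -0.37. The thionins, small antimicrobial peptides, and the serpins, which inhibit proteases, had no bright probe set, and GLU1A, a glucosidase that releases benzoxazinoids, was dim too (-0.23, adjusted p = 0.983). Cold and dehydration genes, COR410 among them, had no bright probe set. GA20ox1d, of gibberellin synthesis, differed by -0.09 and -0.40.

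The remaining groups held 2 to 5 bright probe sets each and had 0 called, against 1.77% over all bright probe sets, too few for 0 to set them apart. In glycolysis GAPN and Pgk-1 differed by 0.56 and 0.35. In fructan, starch and sugar metabolism 1-FEH, which degrades fructan, differed by 0.15 and AGP-S, of starch synthesis, by -0.03. In translation 4 of 5 bright probe sets lay lower, with a median of -0.15. Patterns for receptors and resistance proteins, transcription factors and the cell wall matched no probe set by symbol. Neither did those for scavenging of reactive oxygen and detoxification or for sugar, starch and fructan metabolism. Members named here for these last themes come from the groups filled after the called values were seen. The median 95% interval of a bright probe set reached 0.41 to either side, before any adjustment for the number of probe sets.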

How the data were processed

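Total RNA from leaves was hybridised by the submitters to 13 single-colour Affymetrix wheat arrays. The authors deposited 1 linear intensity per probe set and array, scaled to a common trimmed mean. Their summary software is not given in the sources used here. Of 61290 probe sets 111 controls were removed. Intensities were floored at 16 and log2 was taken, which compresses dim differences, so a fold with repeats of the lower line at the floor is written as at least that fold. Hybridisations of TugelaDn5 repeat 3 were averaged, leaving 12 repeats.

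TugelaDn1 minus TugelaDn2 came from contrasts.fit and eBayes of limma 3.58.1 (R 4.3.3), 4 lines in 1 fit, with 8 residual and 1.45 prior degrees of freedom over all probe sets and 2.83 in the refit on bright ones. Adjusted p-values are Benjamini-Hochberg; those of probe sets called only among bright ones, and of named genes other than LOC543256 and GLU1A, come from the refit, as do intervals. For a difference, a value after ± is the SE of the fit over all probe sets, with the spread pooled over all 4 lines. For a level it is an SD. The code was tested on simulated data.

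Genes came from the platform annotation, with symbols from the RefSeq table of IWGSC CS RefSeq v2.1: 1273 probe sets had 1 gene, 0 several and 59906 none, and 1272 matched that table. Clusters are the identifier up to its second point. Named were the 10 largest differences each way among probe sets called over all probe sets, the other probe sets of their clusters, every called gene, and list members. The members and lists were chosen with earlier results of these data known, and the gene groups were filled after the called values were seen. Alternatives were other floors, scalings, limits, variance priors, samples and a replicate block. Same-numbered repeats of the lines did not deviate together.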

Additional observations from a re-analysis of the deposited data

How the results depend on the processing

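No named call turned its direction. The repeats of the compared lines did not overlap in any call, so leaving out a repeat or raising the floor could not turn it. The counts shifted. Over all probe sets (45 called, 44.4% of them lower in TugelaDn1), 100 were called with a floor of 32 (23.0% lower), 123 with a floor of 64 (34.1% lower), 331 with a trended and robust prior (26.3% lower), 26 with only the 6 arrays of the compared lines, and 100 when only probe sets above the median level were tested (18.0% lower). Among bright probe sets (349, 31.2% lower), 52 were called with only the 6 arrays, 147 with a limit of 7 (20.4% lower), and 55 from the p-values of the fit over all probe sets (20.0% lower). Leaving out 1 repeat gave 24 to 73 over all and 63 to 332 among bright probe sets. With the repeat number as a replicate block 9 were called over all and 238 among bright probe sets (21.0% lower); the numbers did not pair the samples (correlations of same-numbered deviations over all probe sets 0.007, -0.017 and -0.03). The causes of these shifts were not tested.

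Of the 349, 30 were called in every alternative in which they were tested, 24 higher and 6 lower in TugelaDn1. Among them were LOC543256, tested in 26 alternatives, and Ta.23352.1.S1_at, tested in 25. With a TugelaDn1 mean of 5.02, Ta.23352.1.S1_at was left out where both lines had to reach the bright limit. Ta.3830.2.S1_x_at, TaAffx.107221.1.S1_at and Ta.11007.1.A1_at were also tested in 25, and Ta.3830.2.S1_at and Ta.5390.1.S1_at in 24. Of the 45, only Ta.23352.1.S1_at and Ta.3830.1.S1_a_at were called in every alternative. Over the values of the named called probe sets, 565 kept the call, 310 lost it and 0 turned to the opposite sign; with the highest floor tried some dim differences were 0. Differences that were not called did turn, among them PR5 (-0.16 to 0.49 over the alternatives), COMT1 (-0.05 to 0.38), PsbO (-0.05 to 0.25) and GA20ox1d on Ta.141.1.S1_at (-0.37 to 0.13). Dim probe sets were imprecise: the median 95% interval reached 0.98 to either side over all probe sets, against 0.41 among bright ones.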
